A study of Mus musculus with 6 samples.

Results

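Polycomb repressive complex 1 (PRC1) is the histone H2A ubiquitin ligase of the Polycomb system, and its transcripts were followed here through 10 subunit genes chosen by name. They are the catalytic RING genes Rnf2 and Ring1, the PCGF genes Bmi1, Pcgf2, Pcgf1 and Pcgf6, the chromobox genes Cbx2 and Cbx7, the Polyhomeotic gene Phc1, and Rybp. Each symbol matched 1 gene of GENCODE M21 on GRCm38, so 10 of the 52870 genes and assembled loci in each library are described. All 10 passed the filter used for testing, which 13579 genes passed. The transcriptome was measured by RNA sequencing in 3 libraries of Rbbp4-/- mouse embryonic stem cells, titled Rbbp4KO and called the knockout here, and 3 libraries of Rbbp4F/F cells, which serve as the control. All 6 came from the C57BL/6 strain. The labels do not say how the allele was deleted, how many clones were used or whether replicates were grown separately. The p-values therefore measure the spread between these libraries, which may be technical.

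Every PRC1 pairs a RING protein, which carries the ligase activity, with a PCGF protein, and the PCGF protein decides which further subunits join. Canonical PRC1, built on PCGF2 or BMI1, contains a CBX protein that binds the methylated histone H3 left by Polycomb repressive complex 2 (PRC2) and a PHC protein that polymerises and compacts chromatin. Variant PRC1 carries RYBP or its paralog YAF2 where canonical PRC1 has CBX. In mouse embryonic stem cells PRC1 keeps developmental genes silent, and the variant complex built on PCGF6 is known for silencing germline genes. RBBP4, the histone-binding protein whose gene was deleted, is a subunit of PRC2 and of several other chromatin complexes, and is not a PRC1 subunit.

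The deleted gene Rbbp4 had 21.3, 12.7 and 11.1 FPKM in knockout replicates 1 to 3 and 58.5, 57.0 and 61.8 FPKM in control replicates 1 to 3, and was thus lower in every knockout library. FPKM are fragments per kilobase of transcript, scaled to the fragments assigned in the library, so levels can be compared between genes. Antisense exons of Gm26722 and Sync overlap 18.0% of Rbbp4. The estimated depth was 25900000 to 28200000 fragments per library, and 1 fragment on a transcript of 2 kb was worth 0.0204 to 0.0224 FPKM. Of the tested genes 59.1% were called in limma at an adjusted p under 0.05, 36.7% higher and 22.5% lower in the knockout, and their median log2 fold change, knockout minus control, was 0.17. That median was -0.01 with median-ratio scaling, 0.02 with upper-quartile scaling and 0.31 with equal FPKM sums, and calls that one of these scalings ends are named with the gene. Knockout replicate 1 stood apart, at 36.0 on principal component 2, where the other knockout libraries lay at -6.96 and -24.2. The 9 stem cell markers summed to 1636 to 2376 FPKM in the knockout libraries and 5407 to 5682 FPKM in the controls, with none below 1 FPKM throughout. Of these 9, 8 were called lower and Zfp42 was not called. The sums were 102 to 188 FPKM and 31.3 to 42.1 FPKM for 7 trophoblast markers, and 8.66 to 9.62 FPKM and 2.17 to 3.88 FPKM for 6 primitive endoderm markers, in the knockout and the control libraries in that order. Of the trophoblast markers 6 were called higher. Of the endoderm markers 3 were tested and 2 called higher, and 2 stayed below 1 FPKM in all libraries. Cdx2, Gata3 and Gata4 passed the filter through the knockout libraries alone and so had to be higher. Dab2, the other endoderm gene called higher, had 0.84, 1.02 and 0.90 FPKM in the controls. Its entry thus also rested on the knockout libraries. Of 6 fibroblast markers 5 stayed below 1 FPKM in all libraries. The remaining one, Thy1, had means of 7.68 FPKM in the knockout and 14.8 FPKM in the control. It was called lower (log2 fold change -0.84, limma adjusted p = 0.00371). These shifts ran alongside every difference below, and their part in it was not tested. In bulk RNA, fewer cells of a type and less RNA per cell cannot be told apart.

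Of the 10 PRC1 subunits, 3 were higher in the knockout (Bmi1, Cbx7 and Rybp), 4 were lower (Pcgf2, Phc1, Cbx2 and Pcgf6) and 3 were not called (Rnf2, Ring1 and Pcgf1). The 7 calls make 70.0% of the members, beside 59.1% of all tested genes. Knockout and control libraries did not overlap for the same 7 genes, beside 66.8% of tested genes (41.3% higher and 25.5% lower in the knockout). The changes of 2 members, Bmi1 and Phc1, reached 2-fold, and 20.5% of tested genes did so. Bmi1 reached 1 FPKM in no control library, entered the test on its knockout values and so had to be higher. Its direction in these counts was therefore fixed by the filter. The other 9 passed through both groups. The calls of 3 members, Bmi1, Pcgf2 and Phc1, were kept under all alternatives but a 1.5-fold threshold inside the test, and Bmi1 and Phc1 passed that too.

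**Figure D1:**
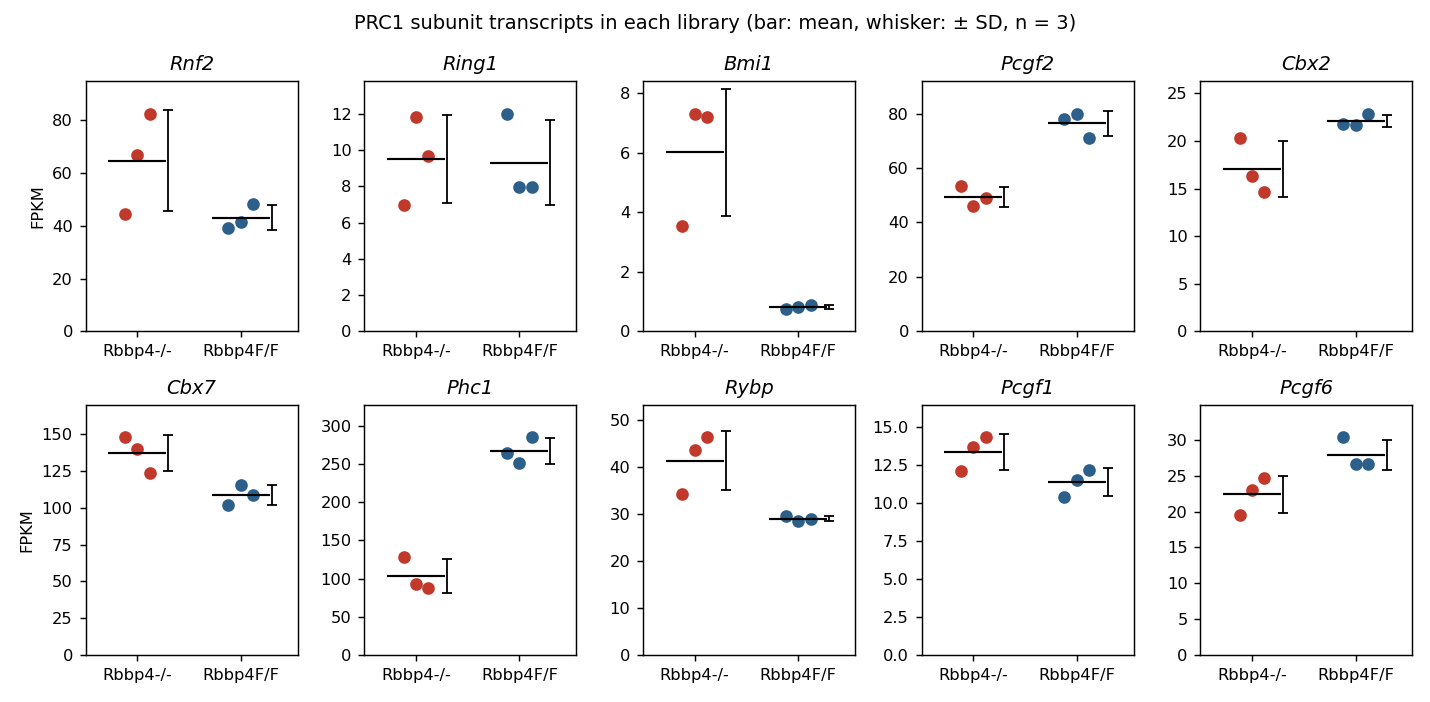
Level of each PRC1 subunit transcript in FPKM (vertical axes, from 0) in the 3 Rbbp4-/- libraries (red, left) and the 3 Rbbp4F/F libraries (blue, right), with the mean as a bar and ± SD as a whisker. Phc1 lies at 88.3 to 128 FPKM in the knockout and 251 to 285 FPKM in the control libraries, while the groups overlap for Rnf2, Ring1 and Pcgf1.

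The canonical PCGF genes moved in opposite directions. Bmi1 (chr2:18677018-18686629, plus strand), which encodes the PCGF protein best known for repressing the Cdkn2a locus, had 3.55, 7.32 and 7.20 FPKM in the knockout libraries and 0.74, 0.80 and 0.89 FPKM in the controls. Every knockout library lay above every control, which the filter made certain, and knockout replicate 1 was the lowest of the 3 knockouts. The means were 6.02 ± 2.14 FPKM in the knockout and 0.810 ± 0.0755 FPKM in the control (SD, n = 3 each), a 7.44-fold ratio. The log2 fold change, knockout minus control on log2(FPKM + 1), was 1.90 (SE 0.25, limma adjusted p = 7.41e-04), the 549th largest in size among the 13579 genes. Pcgf2 (chr11:97688823-97700497, minus strand), the paralog of Bmi1 also called Mel18, had 53.2, 45.9 and 49.0 FPKM in the knockout libraries and 78.0, 80.0 and 71.2 FPKM in the controls. The groups were apart, with means of 49.4 ± 3.67 FPKM and 76.4 ± 4.64 FPKM in the knockout and the control (SD, n = 3 each). Pcgf2 fell by 0.62 on the log2 scale (SE 0.09, limma adjusted p = 0.00101), to 64.7% of the control mean. The knockout level of Bmi1 thus remained far below that of Pcgf2.

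The promoters of this pair are shown because the genes are paralogs that serve the same complex and changed in opposite directions. Each run is the 250 bases before the RefSeq start on GRCm38.p6, read 5′ to 3′ on the gene's strand, with a CACGTG E-box in capitals. Bmi1 lies on the plus strand (chr2:18676768-18677017) and Pcgf2 on the minus strand (chr11:97699649-97699898).
Bmi1: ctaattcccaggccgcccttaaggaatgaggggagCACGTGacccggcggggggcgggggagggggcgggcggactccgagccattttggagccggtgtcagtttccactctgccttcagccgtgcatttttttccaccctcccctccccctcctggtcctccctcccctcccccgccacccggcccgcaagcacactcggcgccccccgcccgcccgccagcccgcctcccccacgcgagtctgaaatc
Pcgf2: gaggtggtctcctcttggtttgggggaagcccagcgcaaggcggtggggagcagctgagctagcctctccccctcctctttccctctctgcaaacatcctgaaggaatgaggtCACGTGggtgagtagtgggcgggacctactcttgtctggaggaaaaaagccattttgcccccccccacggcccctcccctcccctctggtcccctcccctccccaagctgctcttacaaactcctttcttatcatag

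The E-box CACGTG reads the same on both strands and is the site that MAX dimers bind. It begins 215 bases before the start of Bmi1 and 137 bases before that of Pcgf2. It was found in these 2 of the 7 subunit promoters in the RefSeq table, and in 6.02% of all 32851 promoter windows of that length. The E2F core TTCCCGC or its reverse complement GCGGGAA was in 0 of the 7, and in 3.82% of all windows. The windows are placed differently against the GENCODE annotation used for the symbols. The Bmi1 window ends just before the first base of that gene, whereas the RefSeq start of Pcgf2 lies 849 bases inside its gene, so that the window shown falls within it. The windows of Phc1 (334 bases) and Cbx7 (38473 bases) also lie inside, and those of 4 genes, Bmi1 included, lie outside. With that difference, 21 CpG dinucleotides lay in the Bmi1 window and 5 in the Pcgf2 window, beside a median of 6 over all windows. Of the others, Phc1 had 8 CpG dinucleotides, Pcgf6 14, Rnf2 20, Cbx7 23 and Ring1 30. Cbx2, Rybp and Pcgf1 were not in the table.

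Phc1 (chr6:122317731-122340561, minus strand) showed the largest fall of the subunits. It encodes the Polyhomeotic protein most abundant in mouse embryonic stem cells, whose SAM domain polymerises. Knockout libraries had 128, 92.3 and 88.3 FPKM of Phc1, and control libraries had 264, 251 and 285 FPKM. All 3 knockout libraries lay below all controls, with knockout replicate 1 the highest of them. The means were 103 ± 22.1 FPKM in the knockout and 267 ± 17.1 FPKM in the control (SD, n = 3 each), which leaves 38.6% of the control level. The log2 fold change was -1.38 (SE 0.15, limma adjusted p = 3.36e-04), and it ran from -1.57 to -1.22 over all alternatives. Phc1 was the most abundant of the 10 transcripts in the controls, apart from Cbx7 there, and in the knockout its libraries overlapped those of Cbx7.

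The chromobox members changed less. Cbx7 (chr15:79915807-79971119, minus strand), the main CBX gene of mouse embryonic stem cells, had 148, 140 and 124 FPKM in the knockout libraries and 102, 116 and 108 FPKM in the controls. The groups did not overlap, and the means were 137 ± 12.3 FPKM in the knockout and 109 ± 6.89 FPKM in the control (SD, n = 3 each). Cbx7 rose by 0.33 on the log2 scale (SE 0.09, limma adjusted p = 0.0179). The rise did not pass under median-ratio scaling (0.14, limma adjusted p = 0.228) or upper-quartile scaling (0.17, limma adjusted p = 0.129), and also without knockout replicate 2 (0.0642), control replicate 1 (0.0769) or control replicate 3 (0.0556). Antisense exons of Apobec3 overlap 1.5% of Cbx7. Cbx2 (chr11:119022962-119031270, plus strand), a CBX gene whose product compacts chromatin, had 20.3, 16.3 and 14.6 FPKM in the knockout libraries, against 21.8, 21.6 and 22.9 FPKM in the controls. The groups were apart by a small gap, with knockout replicate 1 nearest to the controls. Cbx2 fell by 0.37 on the log2 scale (SE 0.13, limma adjusted p = 0.0422). That call was lost with equal FPKM sums (-0.22, limma adjusted p = 0.143), without a filter (adjusted p = 0.0727), and on leaving out knockout replicate 2 (0.118) or 3 (0.110) or control replicate 1 (0.1001), 2 (0.0933) or 3 (0.115).

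Neither catalytic gene was called. Rnf2 (chr1:151458004-151500955, minus strand), which encodes RING1B, had 44.6, 67.0 and 82.6 FPKM in the knockout libraries and 39.3, 41.3 and 48.4 FPKM in the controls. Knockout replicates 2 and 3 lay above all controls while replicate 1 lay among them, and the log2 fold change of 0.54 had a 95% interval of 0.03 to 1.05 (limma adjusted p = 0.0660). Without knockout replicate 1 it was 0.78 and passed (limma adjusted p = 0.00316), and it also passed with equal FPKM sums (0.0349). Antisense exons of Trmt1l overlap 3.8% of Rnf2. Ring1 (chr17:34020792-34024680, minus strand), which encodes the paralog RING1A, had 6.97, 11.9 and 9.68 FPKM in the knockout libraries and 12.01, 7.95 and 7.95 FPKM in the controls. These ranges overlapped, with a log2 fold change of 0.02 and a 95% interval of -0.51 to 0.56 (limma adjusted p = 0.936). In both groups Rnf2 exceeded Ring1 in every library.

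Among the variant members Rybp rose, Pcgf6 fell by a small amount and Pcgf1 was not called. Rybp (chr6:100228565-100287485, minus strand), whose product stimulates H2A ubiquitination by RING proteins, had 34.3, 43.5 and 46.3 FPKM in the knockout libraries and 29.5, 28.4 and 28.9 FPKM in the controls. The control values were nearly equal and all lay below the knockout values. The means were 41.4 ± 6.28 FPKM in the knockout and 29.0 ± 0.535 FPKM in the control (SD, n = 3 each), and the log2 fold change was 0.49 (SE 0.12, limma adjusted p = 0.0110). It did not pass under median-ratio scaling (0.30, limma adjusted p = 0.0672) or upper-quartile scaling (0.33, limma adjusted p = 0.0577). The processed pseudogene Rybp-ps was listed at 0 in all 6 libraries.

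Pcgf6 (chr19:47033617-47050906, minus strand) had 19.5, 23.0 and 24.7 FPKM in the knockout libraries and 30.4, 26.7 and 26.7 FPKM in the controls. The groups were apart by a small gap, and the log2 fold change was -0.31 (SE 0.11, limma adjusted p = 0.0494). The Pcgf6 call was lost with equal FPKM sums (-0.16, limma adjusted p = 0.314), without a filter (0.0779) and without any of 5 libraries, at limma adjusted p = 0.0684 and 0.0963 without knockout replicate 1 or 2 and 0.167, 0.0890 and 0.0840 without control replicate 1, 2 or 3. Pcgf1 (chr6:83077869-83080855, plus strand), which encodes the PCGF protein that pairs with the CpG-binding KDM2B, had 12.1, 13.7 and 14.3 FPKM in the knockout libraries and 10.4, 11.6 and 12.2 FPKM in the controls. The groups overlapped slightly, and the log2 fold change was 0.21 with a 95% interval of -0.05 to 0.48 (limma adjusted p = 0.139). It passed with equal FPKM sums (0.0359) and without knockout replicate 1 (0.0438).

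**Figure D2:**
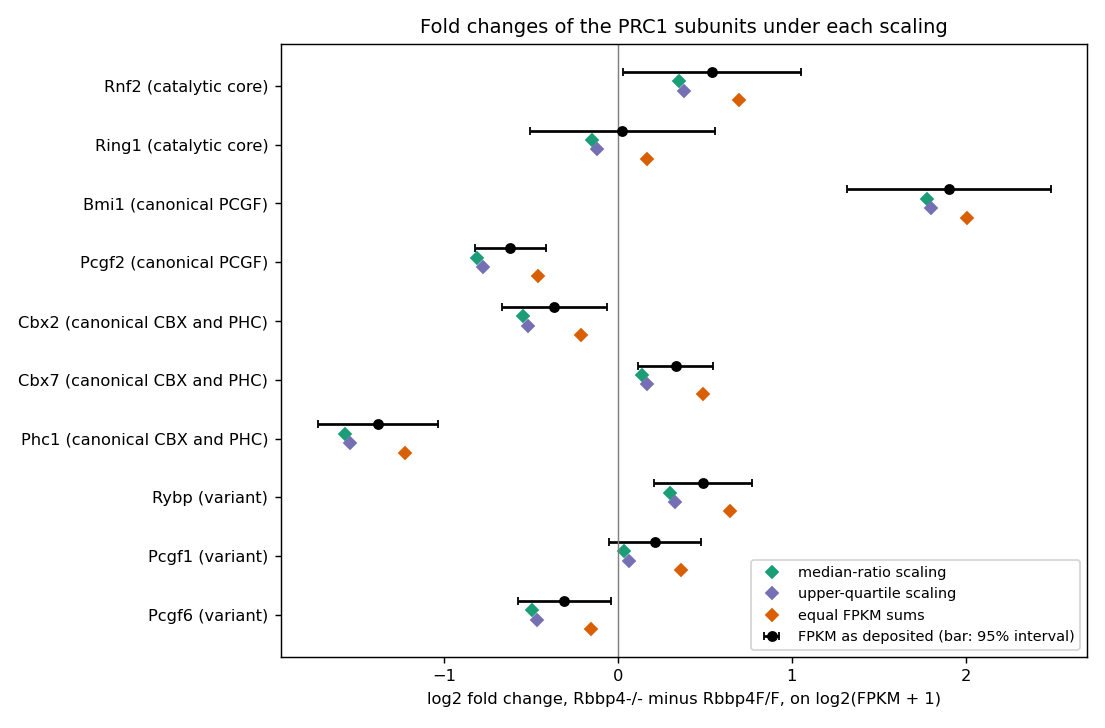
Log2 fold change, Rbbp4-/- minus Rbbp4F/F on log2(FPKM + 1), of the 10 PRC1 subunits (rows, by role) with the values as deposited (black, bar for the 95% interval) and after each of 3 scalings (coloured diamonds). Bmi1 at 1.90, Phc1 at -1.38 and Pcgf2 at -0.62 keep their side under all of them, while Ring1 crosses 0.

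The canonical CBX and PHC members were set against the variant members as the mean log2(FPKM + 1) of Cbx2, Cbx7 and Phc1 minus that of Rybp, Pcgf1 and Pcgf6. This difference of levels was 1.81, 1.285 and 1.07 in the knockout libraries and 1.94, 2.01 and 2.03 in the controls. All knockout libraries lay below the controls, and knockout replicate 1 lay closest to them. The mean difference was 1.39 ± 0.380 in the knockout and 1.99 ± 0.0454 in the control (SD, n = 3 each), so it was lower by 0.60 on the log2 scale in the knockout. With Bmi1 and Pcgf2, the canonical PCGF genes, added to the canonical side, the knockout minus control value was -0.16. That smaller size came from Bmi1, whose log2 fold change was 1.90, since Pcgf2 fell (-0.62). Bmi1 was below 1 FPKM in every control library and entered the test on its knockout values. With Cbx2, Cbx7 and Phc1 alone, the canonical mean was 0.47 lower in the knockout, and the variant mean was 0.13 higher. Without Phc1, left out after its values were seen, the canonical minus variant difference was 1.04 ± 0.342 in the knockout and 1.19 ± 0.0596 in the control, and the groups overlapped. Phc1 therefore makes up most of that difference, and the sides were not uniform, since Cbx7 rose on the canonical side and Pcgf6 fell on the variant side. No p is given because the members were chosen.

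Within a library, the share of a gene in its family's summed FPKM does not depend on scaling between libraries. There were 18 shares in 5 families, of which 12 did not overlap between groups. This is close to the background, since the levels of 66.8% of all tested genes did not overlap. For these 12 the exact two-sided permutation test gave p = 0.1, the smallest that 3 against 3 libraries allow, and 0.15 after Benjamini-Hochberg adjustment over the 18. The families included paralogs outside the 10 subunits. Shares within a family depend on each other, so those of Rybp and Yaf2 express the same difference.

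The Polyhomeotic family changed its make-up the most. Phc1 made up 77.3%, 69.8% and 67.5% of PHC transcript in the knockout libraries and 92.5%, 92.1% and 93.2% in the controls. Phc2 held 25.4 ± 4.36% in the knockout and 6.98 ± 0.545% in the control, and Phc3 held 3.07 ± 0.843% and 0.420 ± 0.0302% in the knockout and the control (SD, n = 3 each). Both paralogs also rose in level, Phc2 at 35.8 ± 1.72 FPKM in the knockout and 20.0 ± 0.491 FPKM in the control (log2 fold change 0.80, limma adjusted p = 2.54e-04), and Phc3 at 4.30 ± 0.763 FPKM and 1.21 ± 0.121 FPKM (1.25, limma adjusted p = 5.25e-04). Their increase was smaller than the loss of Phc1, and the family total was 143 ± 20.0 FPKM in the knockout and 288 ± 16.8 FPKM in the control, a ratio of 0.497. The summed CBX level was 179 ± 18.5 FPKM in the knockout and 146 ± 7.45 FPKM in the control, and the summed PCGF level was 118 ± 10.95 FPKM and 136 ± 4.46 FPKM, each with the groups apart (exact two-sided permutation p = 0.1 for the 3 totals, the smallest possible). The CBX totals overlapped between groups with median-ratio or upper-quartile scaling, and the PCGF totals with equal FPKM sums, whereas the PHC totals stayed apart under all 3 scalings.

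In the PCGF family, Pcgf2 held 50.1%, 38.0% and 38.4% in the knockout libraries, against 56.2%, 57.8% and 54.4% in the controls. Bmi1 held 5.01 ± 1.47% in the knockout and 0.597 ± 0.0753% in the control, and Pcgf5, of the variant complexes that act broadly on the genome, held 13.9 ± 3.64% and 7.30 ± 0.142%. Pcgf1 had 11.3 ± 0.0797% in the knockout and 8.39 ± 0.912% in the control, whereas the shares of Pcgf6 and Pcgf3 overlapped between groups. The level of Pcgf5 itself, at 10.4, 19.5 and 20.3 FPKM in the knockout libraries and 10.1, 10.3 and 9.41 FPKM in the controls, was not called (limma adjusted p = 0.0539) but passed without knockout replicate 1 (limma adjusted p = 3.39e-04), with equal FPKM sums and among protein-coding genes alone.

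Rybp held 68.0%, 69.0% and 69.3% of the summed Rybp and Yaf2 transcript in the knockout libraries and 83.1%, 82.0% and 84.1% in the controls. The shares within each group were close together and the groups were far apart. Yaf2 rose more steeply than Rybp, with 16.2, 19.6 and 20.5 FPKM in the knockout libraries and 6.02, 6.26 and 5.49 FPKM in the controls. Its log2 fold change was 1.51 (SE 0.12, limma adjusted p = 1.26e-04), called under all alternatives. The pair's total was 60.1 ± 8.56 FPKM in the knockout and 34.9 ± 0.573 FPKM in the control, a 1.72-fold ratio, with the groups apart under all 3 scalings.

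Cbx7 remained the main CBX transcript, at 76.9 ± 1.16% of the family in the knockout and 74.4 ± 1.78% in the control, and its share overlapped between groups. Cbx2 held 9.52 ± 0.744% in the knockout and 15.2 ± 0.797% in the control. The low CBX gene Cbx8 rose in level, with 3.41 ± 1.00 FPKM in the knockout and 1.08 ± 0.509 FPKM in the control (log2 fold change 1.09, limma adjusted p = 0.00935). The Cbx8 controls had 1.22, 0.52 and 1.51 FPKM, so its entry to the test also needed a knockout library. Its call was lost with the 1.5-fold threshold (limma adjusted p = 0.180). Cbx8 still held under 3% of the family in every library. Rnf2 held 87.0 ± 2.31% of RING transcript in the knockout and 82.1 ± 4.89% in the control, with overlap.

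**Figure D3:**
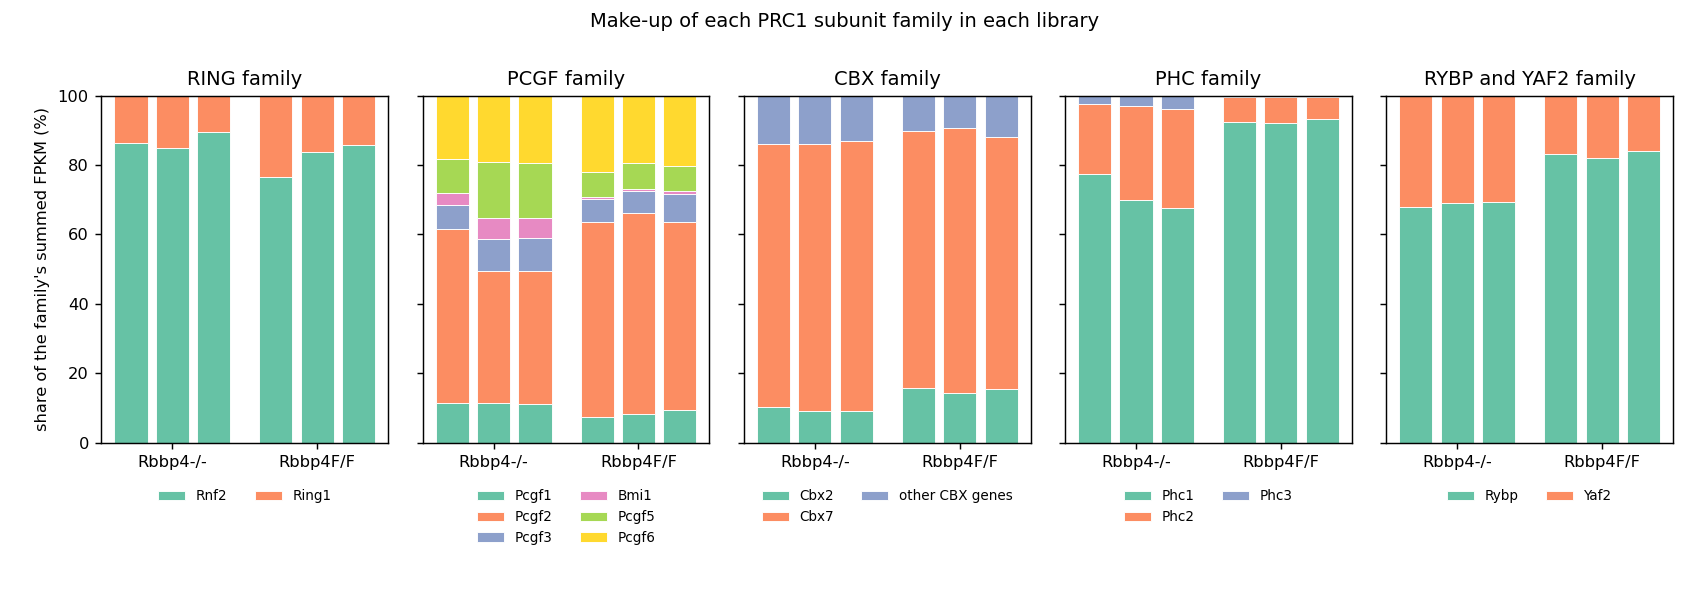
Share of each gene in its family's summed FPKM (vertical axis, percent) in the 3 Rbbp4-/- libraries (left bars) and the 3 Rbbp4F/F libraries (right bars) of 5 PRC1 subunit families, with the CBX genes other than Cbx2 and Cbx7 drawn together. Phc1 holds 67.5% to 77.3% of PHC transcript in the knockout and over 92% in the control libraries, and Yaf2 holds a larger part of its pair in the knockout.

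The order of levels was otherwise similar. In the knockout the means ran from Cbx7 through Phc1, Rnf2, Pcgf2, Rybp, Pcgf6, Cbx2, Pcgf1 and Ring1 down to Bmi1. Neighbours whose libraries overlapped there were Cbx7 and Phc1, Rnf2 and Pcgf2, Pcgf2 and Rybp, Pcgf6 and Cbx2, and Ring1 and Bmi1. In the control the order was Phc1, Cbx7, Pcgf2, Rnf2, Rybp, Pcgf6, Cbx2, Pcgf1, Ring1 and Bmi1, and Rybp overlapped Pcgf6 and Pcgf1 overlapped Ring1. The mean of Bmi1 exceeded that of 33.7% of tested genes in the knockout and 4.56% in the control. Knockout replicate 1 was the knockout library nearest to the control mean for 7 of the 10 subunits, beside 48.9% of all tested genes.

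Of 32 other PRC1 genes, 30 were tested, and 12 were higher (40.0%, beside 36.7% of all tested genes) and 7 lower (23.3%, beside 22.5%). Their median log2 fold change was 0.18, beside 0.17 for all tested genes, so the list was close to the background. The counts were 9 higher and 9 lower with median-ratio or upper-quartile scaling and 16 and 6 with equal FPKM sums. The division by complex was made after the values were seen, so its counts are descriptions. Of 6 canonical genes tested in the list 5 were higher and 0 lower, beside 36.7% and 22.5% of all tested genes, with a median of 0.92 (4 and 0 with median-ratio scaling, 1 and 0 with the 1.5-fold threshold). The list leaves out the canonical members, and with those included 7 of 11 canonical genes were higher and 3 lower, with a median of 0.44. None of the 6 in the list was lower in limma before adjustment either, at a p under 0.05. Scml2 and Scml4, which were not tested, stayed at or below 1.14 FPKM. At these low levels every knockout library lay below every control for Scml2 and above every control for Scml4.

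Subunits of the variant complexes went both ways, and the counts below stand beside 36.7% higher and 22.5% lower among all tested genes. In the PCGF1 complex the corepressor gene Bcor rose, at 19.1 ± 4.81 FPKM in the knockout and 7.06 ± 0.261 FPKM in the control (log2 fold change 1.29, limma adjusted p = 0.00124), while Skp1a, which encodes a ubiquitin ligase adaptor, fell (181 ± 32.8 FPKM in the knockout and 301 ± 13.9 FPKM in the control, -0.75, limma adjusted p = 0.00310). Of the 5 genes of that complex 2 were higher (40.0%) and 1 lower (20.0%). The counts were 1 and 2 with median-ratio scaling, 3 and 1 with equal FPKM sums, and 1 and 1 without control replicate 1 or 2. In the PCGF3 and PCGF5 complexes 2 of 9 were higher and 2 lower (22.2% each), with 1 and 3 under median-ratio scaling, 4 and 2 with equal FPKM sums, and 1 and 2 without knockout replicate 2 or 3 or any one control library. One of the lower genes was the kinase gene Csnk2a1, at 60.1 ± 5.37 FPKM in the knockout and 87.8 ± 4.35 FPKM in the control (-0.54, limma adjusted p = 0.00206).

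The genes of the PCGF6 complex also went both ways. Of 9 tested 2 were higher (22.2%) and 4 lower (44.4%), which was also the count with median-ratio scaling (2 and 3 with equal FPKM sums). E2f6, the DNA-binding repressor of the complex, rose, with 32.4, 34.8 and 35.1 FPKM in the knockout libraries and 14.4, 16.5 and 12.6 FPKM in the controls (log2 fold change 1.19, SE 0.11, limma adjusted p = 2.14e-04). Wdr5, a WD-repeat protein gene shared with histone methyltransferase complexes, fell, with 61.7, 56.3 and 52.1 FPKM in the knockout libraries and 103, 103 and 104 FPKM in the controls (-0.86, SE 0.08, limma adjusted p = 2.14e-04). Cbx3, which encodes the heterochromatin protein HP1 gamma, fell to 43.9 ± 7.74 FPKM in the knockout, against 70.0 ± 1.83 FPKM in the control (-0.68, limma adjusted p = 0.00394). The calls of E2f6 and Wdr5 were kept under all alternatives. That of Cbx3 was lost only with the 1.5-fold threshold, and its processed pseudogenes were listed at up to 1.52 FPKM.

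**Figure D4:**
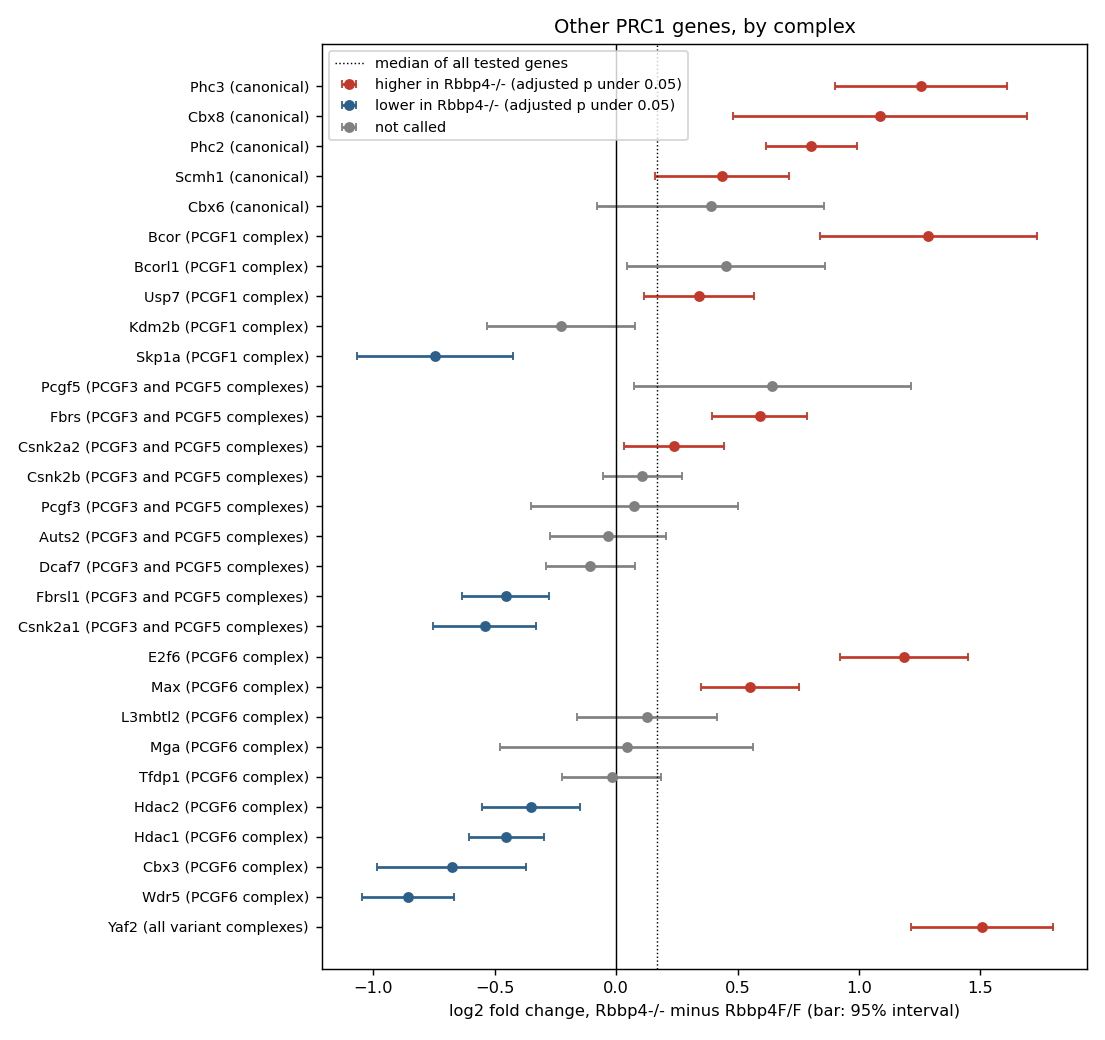
Log2 fold change, Rbbp4-/- minus Rbbp4F/F on log2(FPKM + 1), of other tested PRC1 genes (rows, by complex) with 95% intervals, coloured by call, and a dotted line at the median of all tested genes, 0.17. The canonical genes shown lie to the right of 0, with Phc3 at 1.25, though the interval of Cbx6 includes 0. The 5 canonical members, of which 2 were higher and 3 lower, are not shown. The partners of PCGF6 spread from Wdr5 at -0.86 to E2f6 at 1.19.

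Enzymes and partners that remove ubiquitin from H2A showed 2 higher (20.0%, beside 36.7% of all tested genes) and 1 lower (10%, beside 22.5%) of 10 tested. Their median log2 fold change was 0.05. The counts were 1 higher and 4 lower with median-ratio scaling and 4 higher and 1 lower with equal FPKM sums, and they were 3 and 2 without knockout replicate 1 and 1 and 1 without knockout replicate 2 or control replicate 1. Usp16 rose, at 34.4 ± 7.34 FPKM in the knockout and 16.9 ± 3.58 FPKM in the control (log2 fold change 0.99, limma adjusted p = 0.00438). Usp21 fell, at 25.1 ± 4.75 FPKM in the knockout and 37.0 ± 0.849 FPKM in the control (-0.56, limma adjusted p = 0.00952). Usp22 had 91.3 ± 1.72 FPKM in the knockout and 75.8 ± 2.77 FPKM in the control (0.27, limma adjusted p = 0.0119), but it did not pass with either ratio-based scaling (median-ratio, upper-quartile) or without knockout replicate 2 or control replicate 1. Antisense exons of Cct8 overlap 2.0% of Usp16.

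Germline genes known as targets of the PCGF6 complex in mouse embryonic stem cells were 8 higher (72.7%, beside 36.7% of all tested genes) and 1 lower (9.1%, beside 22.5%) of 11 tested. The count was also 8 and 1 with median-ratio scaling, and 4 and 1 with the 1.5-fold threshold. The median log2 fold change of the 11 was 0.80, beside 0.17 for all tested genes. The list held 15 genes, and Slc25a31, Smc1b, Dazl and Tuba3b were not tested, at 1.27 FPKM or less in all libraries. Without the filter 9 of the 15 were higher and 1 lower, with a median of 0.59. Of all 26853 genes then tested 5347 were higher and 2883 lower, with a median of 0.04. Taf7l and Stk31 passed the filter through the knockout libraries alone and so had to be higher. Without both, 6 of 9 were higher and 1 lower, with a median of 0.74. Tex101, named after its value was seen, stays among these 6. Its controls had 0.83, 1.14 and 0.99 FPKM, so its entry also rested on the knockout libraries. The use of strand is not known, and antisense exons of Chpt1 overlap 52.2% of Sycp3, another of these 6. Those of Oaz3 overlap 36.7% of Tdrkh, which was tested and not called. The meiotic gene Mael had 19.8 ± 1.97 FPKM in the knockout and 9.06 ± 0.699 FPKM in the control, and the others with the smallest p were Taf7l (log2 fold change 3.47) and Ddx4 (1.96). The tubulin gene Tuba3a, named after its value was seen, was the member that fell (-0.98). Over the same libraries Pcgf6 was 0.31 lower and E2f6 was 1.19 higher on the log2 scale. The Pcgf6 call was lost under 9 of 14 alternatives, and a link of either gene to the germline genes was not tested.

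The genes most like the 3 members with the largest changes were found by the root-mean-square difference, over the 6 libraries, of log2(FPKM + 1) minus the gene's own control mean, among 12211 other protein-coding genes. For Bmi1 they were Ets1 (0.0593) and Hipk3 (0.0635). Ets1 had 3.51, 7.07 and 6.26 FPKM in the knockout libraries and 0.63, 0.69 and 0.70 FPKM in the controls. Knockout replicate 1 was the lowest of the 3 as for Bmi1, which follows from choosing by likeness over these same libraries. Like Bmi1, Ets1 reached 1 FPKM in no control library and so had to be higher. For Phc1 they were Mib2 (0.0231) and Pfkm (0.0307), and for Pcgf2 they were Celsr1 (0.0288) and Mcam (0.0456).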

How the data were processed

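The authors deposited 1 file per library with a gene identifier and a value, without a header, and the unit was taken as FPKM from the values. They are not whole numbers, and they sum to 697933 to 800146 per library. Tools listed in the submitters' processing notes are HISAT2 2.1.0, RSEM, FastQC and DESeq 1.26.0, with the build GRCm38.p6 and no roles. The annotation release and use of strand were not given in the sources used here. In each file 2 rows hold overflowing text and were left out. Symbols came from GENCODE M21, which matched 51719 of 51912 Ensembl genes.

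Knockout and control were compared on log2(FPKM + 1) by limma 3.58.1 (R 4.3.3, mean trend, two-sided) for genes that reached 1 FPKM in 3 or more libraries, with Benjamini-Hochberg adjustment over 13579 genes and a threshold of 0.05. This scale understates changes of low genes. No count model was used. Depth was estimated from the spacing of low values, of which 83.9% to 87.1% lay within 0.15 of a whole fragment, after 260 to 280 bases were subtracted from transcript lengths. The test was also run on simulated data with 200 changed genes and independent noise. That setting differs from these data, where 59.1% of tested genes were called, so it does not show how the test performs here. Exact tests used scipy 1.17.1.

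The members and lists were chosen with earlier results of these data known. The rule for naming took all 10 members, the called genes of the other lists with the 4 largest and 4 smallest log2 fold changes, and 3 germline genes by p. Phc2, Cbx8, Pcgf5 and Rbbp4 were named for the families and the check of the labels. The division of the other PRC1 genes into complexes was made after their values were seen. One gene of the other PRC1 list is included in the counts and totals and is not reported here by itself. Alternatives were 3 scalings, a pseudocount of 0.1, no filter, protein-coding genes alone, the replicate number as a block, a 1.5-fold threshold inside the test and each library left out (at least 1 FPKM in 2 libraries). Scalings of the family totals and the germline count without genes admitted by the knockout alone were chosen after seeing the data. Promoter sequences are from RefSeq on GRCm38.p6.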

Additional observations from a re-analysis of the deposited data

How the results depend on the processing

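Of the 10 subunits, 3 were called higher and 4 lower. Median-ratio scaling, upper-quartile scaling and the 1.5-fold threshold each left 1 higher, and equal FPKM sums gave 5. The number called lower was 2 with equal FPKM sums, without a filter and with the replicate block, and 1 with the 1.5-fold threshold. Leaving out 1 library gave 2 to 5 higher (5 without knockout replicate 1) and 2 to 3 lower (2 without knockout replicate 2 or control replicate 1, 2 or 3). With the replicate block Rnf2 was called (adjusted p = 0.0213) and Cbx2 (0.0607) and Pcgf6 (0.0930) were not. Same-numbered libraries deviated together with correlations of -0.00121, -0.00933 and 0.0492 only, so the number is not taken to pair them. The 1.5-fold threshold gave 1535 higher and 839 lower of all tested genes and 4 and 1 of the other PRC1 genes. Without 1 library 4231 to 5592 tested genes were higher and 2436 to 3587 lower, and 9 to 13 and 7 to 8 of the other PRC1 genes. Ring1 changed sign with median-ratio (-0.15) and upper-quartile scaling (-0.12), and its log2 fold change ran from -0.14 to 0.21 on leaving out a library, with -0.0026 without knockout replicate 3 and -0.07 without control replicate 2 or 3. The canonical minus variant difference, -0.60, was -0.16 with Bmi1 and Pcgf2 on the canonical side and ran from -0.81 to -0.45 without 1 library. The move to -0.16 came from Bmi1, since Pcgf2 fell. The count of shares that did not overlap was 12 of 18, close to the 66.8% of all tested genes by level. The count was 5 among the listed members alone, which form fewer than 18 shares because Phc1 and Rybp then have no paralog. It was 12 to 15 without 1 library, and no background share is given for those smaller groups. Causes were not tested. With 3 libraries a group, exact tests cannot reach p under 0.1.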
